A study of Mus musculus with 18 samples.

Results

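The genes of cholesterol synthesis and of the SREBP2 pathway were examined in mouse liver, as 30 genes given by name out of the 55487 genes of the count table. They were taken as 7 genes of acetyl unit supply and the mevalonate steps, 3 of the isoprenoid branch, 12 of the squalene and sterol steps, 6 for SREBP2 and its processing, and 2 sterol transport genes that SREBP2 controls. The livers came from 18 male C57BL/6J mice in 3 groups of 6. The mice had received an AAV8 vector in which the hepatocyte-specific TBG promoter drove either GFP or human LIPA, the gene of lysosomal acid lipase (LAL), the enzyme that hydrolyses cholesteryl esters and triglycerides in lysosomes. CON-GFP mice carried the GFP vector and were fed a purified control diet, FPC-GFP mice carried the GFP vector and were fed FPC, a diet rich in fructose, palmitate and cholesterol with fructose and glucose in the drinking water, and FPC-LIPA mice carried the LIPA vector on the FPC diet. Feeding lasted 16 weeks, and livers were collected after a 4 h fast. Every mouse thus carried a vector, all were male, the LIPA of the vector was human and aimed at hepatocytes, and no group had LIPA on the control diet. The human LIPA and GFP sequences are not rows of the mouse table, so the vector labels were not checked with them; mouse Lipa itself was at 243 ± 33.9 CPM (counts scaled to the library's TMM-adjusted total; mean ± SD, n = 6) in CON-GFP, 336 ± 59.3 in FPC-GFP and 300.2 ± 44.8 in FPC-LIPA.

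Cholesterol is built from acetyl-CoA through mevalonate, the isoprenoids, squalene and lanosterol. SREBP2, the protein of Srebf2, is the transcription factor that raises the genes of this route when sterols in the endoplasmic reticulum are low. SCAP escorts it to the Golgi, where the proteases S1P (Mbtps1) and S2P (Mbtps2) release its active part, and INSIG1 and INSIG2 hold SCAP back when sterols are plentiful. In liver the route supplies cholesterol for lipoproteins and bile acids.

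Some libraries stood apart before any comparison. In FPC-LIPA 36, 37 and 39 the ribosomal protein genes took 6.49%, 8.10% and 8.16% of the counts, against at most 2.95% in the other 15 libraries. Their log2 counts also fell with exon length, by 0.22, 0.15 and 0.23 per doubling, where the slopes of the other libraries lay between -0.01 and 0.16, and with the GC content of the transcripts, by 0.61, 0.91 and 0.26 per 10 percentage points. CON-GFP 2 shared the trend with GC content, with a slope of -0.50. Calls among the 30 genes in comparisons with FPC-LIPA are therefore given with and without FPC-LIPA 36, 37 and 39. Among controls, CON-GFP 6 had the highest level of its group in 14 of the 30 genes, and its median deviation from the CON-GFP mean was 0.45 on the log2 scale. Total counts ran from 16632146 to 37739301 per library. The tissue label was checked against markers: 7 hepatocyte markers summed to between 49903 and 97684 CPM in every liver. Kupffer cell and macrophage markers (8 genes) summed to 159 to 334 CPM in CON-GFP, 445 to 869 in FPC-GFP and 919 to 1632 in FPC-LIPA. The groups did not overlap in this sum, but most single markers of the list overlapped between FPC-GFP and FPC-LIPA. In FPC-LIPA 36, 37 and 39 some of them lay below every FPC-GFP liver and others above. In bulk tissue, fewer cells of a type and less RNA per cell cannot be told apart.

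The promoters of the genes that the comparisons turn on are shown first. Of the 30 genes, 26 had RefSeq promoter windows (GRCm38.p6, 250 bases before to 50 after the start), 32 windows in all; Fdps, Fdft1, Sqle and Stard4 had none in the table. The letters TCACNCCAC, the core of a sterol regulatory element as bound by SREBPs, and CCAAT, the NF-Y box that often lies near such elements, were searched on both strands. The sterol element was found in 1 of 26 genes, Hmgcs1, with its first base 137 before the start, and in 1.24% of all 32851 promoters. The NF-Y box was found in 21 of the 26 genes and in 21 of the 32 windows, against 37.4% of all promoters. A match is a description of the letters and not a site in use. Hmgcs1 is printed as the holder of the element, Lss as 1 of the 2 genes that rose with the diet, Srebf2 and Scap as 2 of the 6 that fell in FPC-LIPA against FPC-GFP, and Lbr as 1 of the 2 that rose there. Capitals mark the motifs, with the NF-Y box reading ATTGG where it lies on the other strand, and sequences run 5′ to 3′ along the gene.
Hmgcs1 (chr13:119690101-119690400, plus strand): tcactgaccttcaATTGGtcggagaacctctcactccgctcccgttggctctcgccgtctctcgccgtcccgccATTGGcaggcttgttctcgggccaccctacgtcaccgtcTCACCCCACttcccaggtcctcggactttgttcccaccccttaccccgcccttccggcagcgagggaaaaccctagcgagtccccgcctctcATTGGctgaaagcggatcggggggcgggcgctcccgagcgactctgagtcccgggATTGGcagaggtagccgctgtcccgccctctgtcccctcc
Lss (chr10:76531355-76531654, plus strand): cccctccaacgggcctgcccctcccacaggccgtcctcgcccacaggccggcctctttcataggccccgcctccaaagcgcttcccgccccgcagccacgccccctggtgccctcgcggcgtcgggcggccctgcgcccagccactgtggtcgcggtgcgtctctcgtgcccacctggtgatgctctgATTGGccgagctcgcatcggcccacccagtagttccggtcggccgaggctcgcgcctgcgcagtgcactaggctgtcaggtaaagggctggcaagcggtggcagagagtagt
Srebf2 (chr15:82147019-82147318, plus strand): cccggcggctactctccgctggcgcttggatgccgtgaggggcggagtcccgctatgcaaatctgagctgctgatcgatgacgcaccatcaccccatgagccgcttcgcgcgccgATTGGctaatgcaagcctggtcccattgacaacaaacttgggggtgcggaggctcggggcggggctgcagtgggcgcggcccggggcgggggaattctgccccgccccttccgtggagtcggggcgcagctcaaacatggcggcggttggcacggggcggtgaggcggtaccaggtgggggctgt
Scap (chr9:110333038-110333337, plus strand): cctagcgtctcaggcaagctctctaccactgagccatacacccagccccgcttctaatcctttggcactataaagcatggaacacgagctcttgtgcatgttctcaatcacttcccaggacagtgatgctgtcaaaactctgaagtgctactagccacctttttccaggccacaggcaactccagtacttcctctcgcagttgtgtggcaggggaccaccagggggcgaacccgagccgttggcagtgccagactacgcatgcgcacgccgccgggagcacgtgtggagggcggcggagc
Lbr (chr1:181842352-181842651, minus strand): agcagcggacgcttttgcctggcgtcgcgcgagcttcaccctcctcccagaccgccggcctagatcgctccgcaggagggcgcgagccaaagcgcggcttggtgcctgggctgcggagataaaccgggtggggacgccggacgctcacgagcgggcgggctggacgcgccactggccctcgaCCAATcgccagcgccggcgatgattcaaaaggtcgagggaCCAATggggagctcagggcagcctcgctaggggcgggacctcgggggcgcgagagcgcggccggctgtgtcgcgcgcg
Srebf2 and Lss each held 1 NF-Y box on the other strand, Lbr held 2, and Scap held neither motif in either of its 2 windows.

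Levels of different genes were compared as CPM per kilobase of exon. In CON-GFP livers Insig2, the INSIG that does not depend on SREBP2 in the way Insig1 does, was the highest of the 30 at 158 CPM per kilobase. Ebp, the sterol isomerase, followed at 77.02, Sc5d, the lathosterol desaturase, at 56.6, Tmem97, a sterol-binding membrane protein, at 48.00, and Insig1 at 38.4. At the low end stood Sqle, squalene epoxidase, at 0.355, and Fdps, farnesyl diphosphate synthase, at 0.326. Counts of Fdps ran from 6 to 96 per library, of Sqle from 10 to 224, of Mvd from 20 to 331 and of Mvk from 24 to 291, so these genes carry more counting error than the rest. By annotated span, Fdps, Tm7sf2 (with Vps51) and Mbtps2 (with Yy2) overlap a protein-coding gene on their own strand, while Mvd, Ggps1, Fdft1, Cyp51 and Lbr overlap a protein-coding gene on the other strand. How the counting treated such reads, and whether it used strand, is not given in the sources used here.

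**Figure D1:**
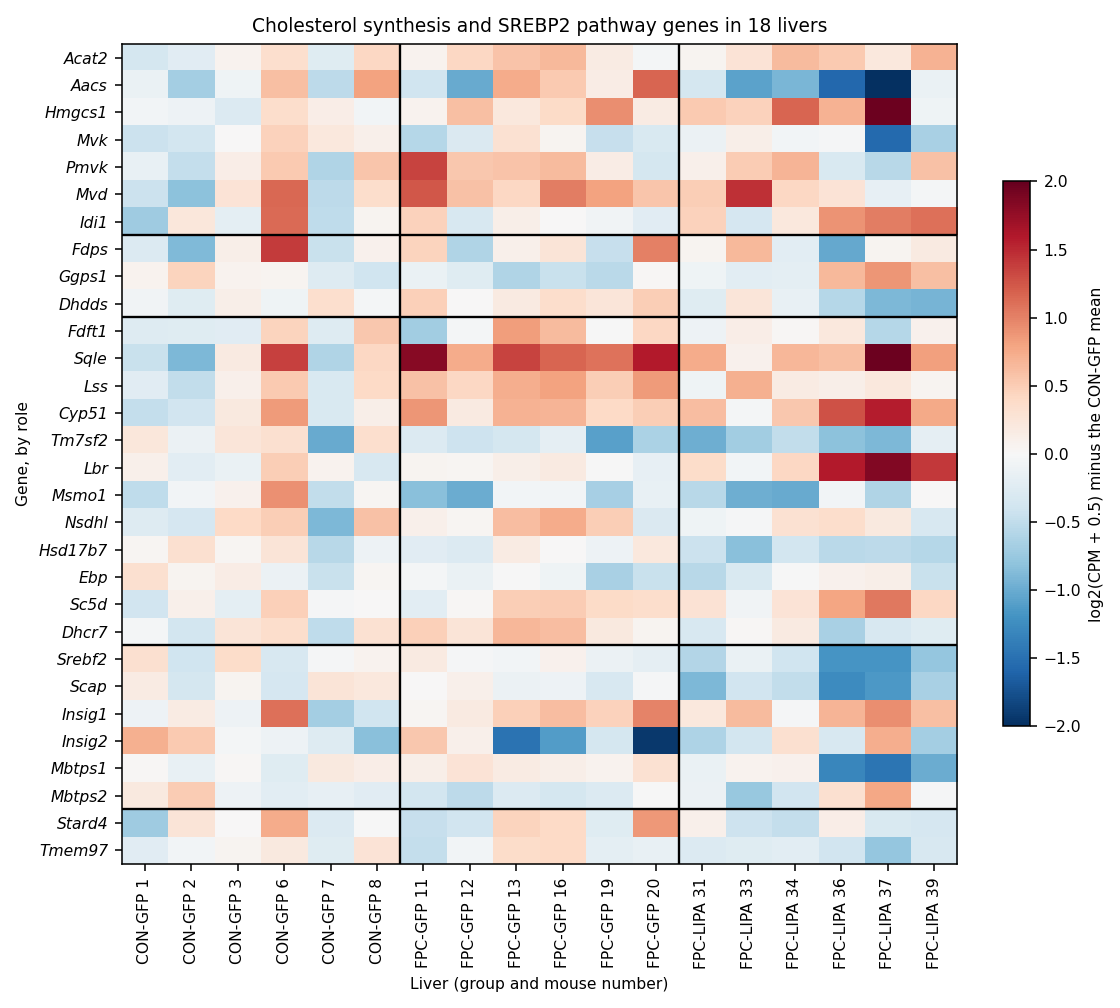
Each row is 1 of the 30 genes, ordered by role with lines between roles, and each column is 1 liver; colour gives log2(CPM + 0.5) minus the CON-GFP mean, with the scale ending at 2 in either direction. CON-GFP 6 is high in most of the mevalonate and sterol rows, and Sqle is high across FPC-GFP. FPC-LIPA 36, 37 and 39 are all high in Lbr and low in Srebf2 and Mbtps1. Other rows are as strong in single livers, such as Aacs, Hmgcs1 and Sqle in FPC-LIPA 37.

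The first comparison, FPC-GFP against CON-GFP, asked what the diet did to the route under the GFP vector. Of the 30 genes, 2 rose and 0 fell (edgeR quasi-likelihood test, adjusted p under 0.05 over 14307 genes), beside 12.9% of all genes higher and 10.9% lower. At an unadjusted p under 0.05, 7 of the 30 were higher and 4 lower, and the share of all genes at that threshold was not counted. At the adjusted threshold, 2 of 30 is a smaller share than 12.9%, and the difference was not tested. At the study's threshold for DE genes, which adds a fold change of at least 2, only Sqle passed, beside 4.76% of all genes higher and 2.44% lower. The median log2 fold change was 0.14 over the 30 genes and 0.01 over all genes, and 17 of the 30 lay above 0. With the DESeq2 Wald test the same 2 genes were higher and 1, Tm7sf2, was lower.

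Sqle makes squalene epoxide, the entry to the sterols. Its CPM in CON-GFP 1, 2, 3, 6, 7 and 8, in that order, was 1.06, 0.645, 1.90, 4.97, 0.896 and 2.35. In FPC-GFP 11, 12, 13, 16, 19 and 20 it was 6.98, 3.06, 4.91, 4.27, 4.02 and 5.89. The groups overlapped through CON-GFP 6, and every FPC-GFP liver was above the other 5 controls. The log2 fold change was 1.28 ± 0.39 (SE; adjusted p = 0.028, edgeR). The call was lost without CON-GFP 1, CON-GFP 2 or FPC-GFP 11.

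Lss, lanosterol synthase, closes the first sterol ring system. It measured 15.1, 12.6, 19.3, 25.9, 14.3 and 23.6 CPM in the 6 CON-GFP livers and 26.9, 23.97, 29.98, 31.5, 25.3 and 32.6 in the 6 FPC-GFP livers, with CON-GFP 6 again the highest control and the sole control above the lowest FPC-GFP values. The log2 fold change of 0.61 ± 0.17 (adjusted p = 0.016, edgeR) was called in all 12 fits that left out 1 library.

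The other genes of the sterol steps had fold changes on both sides. Cyp51, lanosterol demethylase, had a log2 fold change of 0.50 ± 0.20 (adjusted p = 0.086, edgeR), and Dhcr7, which completes cholesterol in the Kandutsch-Russell branch, 0.36 ± 0.16 (adjusted p = 0.12). Tm7sf2, a sterol reductase, had -0.54 ± 0.21 (adjusted p = 0.068), and Msmo1, the methylsterol oxidase, -0.51 ± 0.24 (adjusted p = 0.13). None of these passed the test. Fdft1, Nsdhl, Hsd17b7, Ebp, Sc5d and Lbr lay between -0.24 ± 0.14 for Ebp and 0.25 ± 0.16 for Sc5d.

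In the mevalonate steps 0 of 7 genes passed in either direction. Hmgcs1, the HMG-CoA synthase of the cytosol, had a log2 fold change of 0.40 ± 0.15 (adjusted p = 0.067, edgeR), Mvd, mevalonate diphosphate decarboxylase, 0.71 ± 0.32 (adjusted p = 0.12), and Pmvk, phosphomevalonate kinase, 0.51 ± 0.26 (adjusted p = 0.17). Acat2, Aacs, Mvk and Idi1 lay between -0.24 ± 0.20 for Mvk and 0.29 ± 0.16 for Acat2. In the isoprenoid branch Ggps1, which makes geranylgeranyl diphosphate, had -0.35 ± 0.16 and Dhdds, which extends the dolichol chain, 0.28 ± 0.12; neither they nor Fdps passed.

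The regulators did not pass with the diet. Srebf2 had 43.9, 26.6, 45.2, 27.9, 34.5 and 36.8 CPM in CON-GFP and 39.7, 34.6, 33.9, 37.5, 32.3 and 31.1 in FPC-GFP, for which the log2 fold change was -0.05 ± 0.14 (adjusted p = 0.81, edgeR). Scap had 81.2, 56.5, 75.6, 57.1, 86.97 and 84.5 and 72.7, 77.7, 67.1, 67.5, 57.9 and 71.1 CPM, with -0.10 ± 0.13 (adjusted p = 0.57). For both genes the FPC-GFP values lay inside the control range.

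The INSIG pair spread far more within groups. Insig1, itself a target of SREBP2, measured 102, 123, 102, 236, 67.9 and 82.5 CPM in CON-GFP and 113, 123, 152, 167, 151 and 218 in FPC-GFP, with a fold change on the log2 scale of 0.37 ± 0.26 (adjusted p = 0.3, edgeR). Insig2 measured 847, 745, 499.7, 480.2, 432 and 288 CPM in CON-GFP and 753, 553, 185, 237, 404 and 135 in FPC-GFP, with -0.55 ± 0.37 (adjusted p = 0.29). FPC-GFP 20 had the lowest Insig2 and the highest Insig1 of its group, and FPC-GFP 11 the highest Insig2 and the lowest Insig1. Among controls the highest Insig1 was in CON-GFP 6 and the lowest Insig2 in CON-GFP 8. Mbtps1 and Mbtps2 had log2 fold changes of 0.16 ± 0.10 and -0.35 ± 0.16, and the transport genes Stard4 and Tmem97 of 0.12 ± 0.25 and -0.00 ± 0.15, and none passed.

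The count with the diet depended on single libraries. It was 1 without CON-GFP 1 or CON-GFP 2 and 3 without CON-GFP 7. Over all genes, 1483, 1555 and 1847 were higher in those fits. Without CON-GFP 6, singled out after the data were seen, 6 genes were higher (Cyp51, Mvd, Sqle, Lss, Insig1 and Hmgcs1) and 0 lower, beside 10.6% of all genes higher and 8.57% lower, and the median over the 30 was 0.28. Over the libraries with sheet numbers 55 to 68, a run of numbers in the labels, 0 of the 30 were called by edgeR. Over all 14640 genes that fit had 1111 higher and 884 lower. At an unadjusted p under 0.05, 3 of the 30 were higher and 1 lower, again without a share of all genes. Scaling by library size alone gave 8 of the 30 higher and 0 lower, beside 23.7% of all genes higher and 4.84% lower, and moved the median of all genes to 0.21.

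Lists of other genes were counted apart, to be read beside the same 12.9% of all genes higher and 10.9% lower. Of 17 tested other genes of the route, 8 rose and 0 fell, with a median log2 fold change of 0.26. Rnf145, a sterol-sensing ubiquitin ligase, had 1.66 ± 0.17 (adjusted p = 5.7e-05, edgeR) and Srebf1, the gene of SREBP1, 1.49 ± 0.18 (adjusted p = 0.0002). Of 12 genes of SREBP1 and fatty acid synthesis 7 rose, with a median of 0.95, and of 9 LXR targets 4 rose, with a median of 0.47. In the prenyl transfer, dolichol and ubiquinone list 2 of 13 rose and 1 fell.

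**Figure D2:**
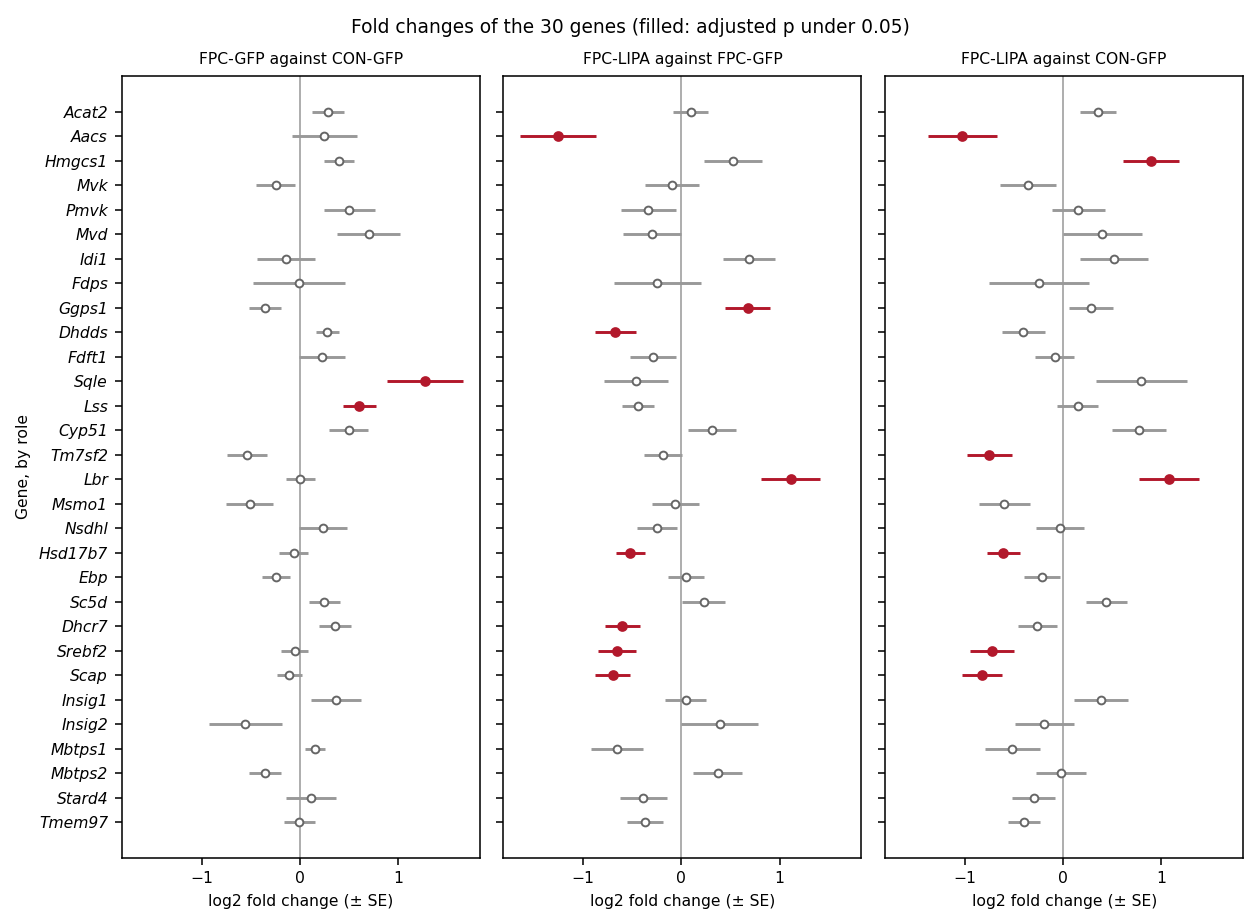
Log2 fold changes with their SE for the 30 genes, by role, in each of the 3 comparisons, with 6 livers per group; filled points have an adjusted p under 0.05. Sqle and Lss are filled for the diet, and 6 genes to the left and 2 to the right for FPC-LIPA against FPC-GFP.

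The second comparison, FPC-LIPA against FPC-GFP, asked what LIPA did on the FPC diet. It shares its FPC-GFP livers with the first. Of the 30 genes, 6 fell (Aacs, Scap, Dhdds, Srebf2, Dhcr7 and Hsd17b7) and 2 rose (Lbr and Ggps1), beside 6.87% of all 14620 genes lower and 14.4% higher. Aacs and Lbr also passed the fold change of 2, beside 1.11% of all genes lower and 10.3% higher. The median was -0.25 over the 30 genes and 0.04 over all genes, and 19 of the 30 lay below 0. With FPC-LIPA 31, 33 and 34 alone as the LIPA group, 0 of the 30 fell and 0 rose, beside 0.112% of all genes lower and 1.11% higher. The median there was -0.18 over the 30 and 0.01 over all genes. At an unadjusted p under 0.05 that edgeR fit had 6 of the 30 lower and 0 higher, with no share of all genes counted at that threshold. None was DE there, beside 0.0328% of all genes lower and 0.728% higher.

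Scap and Srebf2, the escort and the factor, were lower together. Scap measured 38.7, 55.2, 51.5, 30.2, 32.5 and 46.2 CPM in FPC-LIPA 31, 33, 34, 36, 37 and 39, in that order, all below the lowest FPC-GFP liver at 57.9 CPM. How many of all genes had groups without overlap was not counted. The log2 fold change of Scap was -0.70 ± 0.18 (adjusted p = 0.02, edgeR), and it was called in all 12 fits that left out 1 library. With FPC-LIPA 31, 33 and 34 alone it was -0.50 ± 0.14 (adjusted p = 0.11). Srebf2 measured 23.2, 31.8, 26.6, 15.2, 15.2 and 20.4 CPM in FPC-LIPA, where only FPC-LIPA 33 reached the FPC-GFP range. The log2 fold change was -0.65 ± 0.19 (adjusted p = 0.031), and -0.35 ± 0.13 (adjusted p = 0.20) with the 3 livers alone. Removing each library's trends with length and GC content left Srebf2 at -0.22 ± 0.11 and Scap at -0.30 ± 0.13, neither called.

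The remaining regulators did not pass. Insig1 measured 126, 170.2, 107, 175, 208 and 166 CPM in FPC-LIPA (log2 fold change 0.05 ± 0.21, adjusted p = 0.88, edgeR) and Insig2 336, 398, 646, 411, 853 and 321 CPM (0.39 ± 0.39, adjusted p = 0.47). Both lay across the FPC-GFP range. Mbtps1 had -0.66 ± 0.27 (adjusted p = 0.081), with 55.8, 64.01, 64.98, 24.4, 21.99 and 30.7 CPM, and the low values were those of FPC-LIPA 36, 37 and 39, without which it was at -0.16 ± 0.12. Mbtps2 had 0.37 ± 0.25.

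Of the sterol steps, 2 of 12 genes fell and 1 rose. Hsd17b7, the keto-sterol reductase of the demethylation steps, measured 21.1, 20.4, 27.6, 24.8, 22.8 and 28.5 CPM in FPC-GFP and 18.1, 13.6, 19.1, 16.8, 16.99 and 16.4 in FPC-LIPA, after 25.4, 30.8, 25.3, 29.7, 16.6 and 22.9 in CON-GFP. The FPC groups did not overlap, and the share of all genes with no overlap was not counted. The log2 fold change was -0.52 ± 0.15 (adjusted p = 0.029, edgeR). It was about as large with FPC-LIPA 31, 33 and 34 alone, at -0.51 ± 0.16 (adjusted p = 0.13), and with trends removed, at -0.58 ± 0.13 (adjusted p = 0.016).

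Dhcr7 measured 26.4, 21.1, 32.5, 34.99, 18.98 and 33.6 CPM in CON-GFP, 38.1, 32.7, 43.4, 42.1, 31.2 and 28.3 in FPC-GFP and 21.7, 27.6, 30.9, 17.2, 21.7 and 22.9 in FPC-LIPA. Its log2 fold change between the FPC groups was -0.60 ± 0.18 (adjusted p = 0.031, edgeR), with FPC-LIPA 34 alone inside the FPC-GFP range. It was -0.42 ± 0.17 with FPC-LIPA 31, 33 and 34 alone (adjusted p = 0.21).

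Lbr, the lamin B receptor, which is also a sterol reductase, measured 7.62, 5.99, 6.38, 10.1, 7.39 and 5.54 CPM in CON-GFP, 7.32, 7.22, 7.69, 8.07, 6.96 and 6.25 in FPC-GFP and 9.26, 6.78, 9.58, 22.2, 26.8 and 19.6 in FPC-LIPA. The 3 values of FPC-LIPA 36, 37 and 39 were the highest of all 18 livers, and those of 31, 33 and 34 lay within the CON-GFP range. The log2 fold change was 1.11 ± 0.30 (adjusted p = 0.024, edgeR) with all 6 livers and 0.24 ± 0.16 (adjusted p = 0.43) without FPC-LIPA 36, 37 and 39. With trends removed it was 0.92 ± 0.25 (adjusted p = 0.028).

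Sqle and Lss, which had risen with the diet, were not called here. Sqle measured 3.06, 1.75, 2.87, 2.74, 7.78 and 3.25 CPM in FPC-LIPA (log2 fold change -0.46 ± 0.32, adjusted p = 0.29, edgeR), with FPC-LIPA 37 the highest of all 18 livers. Lss measured 16.8, 29.4, 20.1, 19.5, 20.6 and 18.6 CPM (-0.44 ± 0.17, adjusted p = 0.066). The other 7 sterol genes lay between -0.29 ± 0.24 for Fdft1 and 0.31 ± 0.24 for Cyp51.

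In the mevalonate steps 1 of 7 genes fell and 0 rose. Aacs, acetoacetyl-CoA synthetase, which feeds ketone bodies into lipid synthesis, measured 69.3, 47.4, 71.7, 115, 52.7 and 134 CPM in CON-GFP, 57.8, 37.3, 128, 109.5, 84.3 and 170.2 in FPC-GFP and 59.4, 35.97, 39.99, 25.2, 14.7 and 69.1 in FPC-LIPA. FPC-GFP itself spread from 37.3 to 170.2 CPM, and its 2 lowest livers lay within the FPC-LIPA range. The log2 fold change of -1.26 ± 0.39 (adjusted p = 0.036, edgeR) was the largest fall of the 30, and it was -1.11 ± 0.40 (adjusted p = 0.17) with FPC-LIPA 31, 33 and 34 alone. Idi1, the isopentenyl diphosphate isomerase, had 0.69 ± 0.27 (adjusted p = 0.073) and Hmgcs1 0.52 ± 0.30 (adjusted p = 0.19). Acat2, Mvk, Pmvk and Mvd lay between -0.34 ± 0.28 for Pmvk and 0.10 ± 0.18 for Acat2.

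Of the isoprenoid branch, Dhdds fell and Ggps1 rose. Dhdds measured 20.01, 17.7, 22.8, 19.9, 26.7 and 20.6 CPM in CON-GFP, 29.5, 21.3, 24.1, 26.97, 25.1 and 29.9 in FPC-GFP and 17.9, 24.96, 19.00, 14.03, 11.1 and 10.9 in FPC-LIPA, a log2 fold change of -0.67 ± 0.21 (adjusted p = 0.036, edgeR). Ggps1 measured 12.4, 16.1, 12.4, 12.3, 9.74 and 8.83, 10.7, 9.89, 7.59, 8.52, 7.89 and 11.9 and 10.99, 10.1, 10.1, 18.6, 22.1 and 18.1 CPM in the same order of groups, with 0.67 ± 0.23 (adjusted p = 0.048). Both fold changes were smaller without FPC-LIPA 36, 37 and 39. With the other 3 alone, Dhdds was at -0.33 ± 0.16 (adjusted p = 0.28, edgeR). Ggps1 was at 0.16 ± 0.17 (adjusted p = 0.66). Calls over all genes fell in that fit too, to 17 lower and 169 higher. The calls of Dhdds and Ggps1 were lost without FPC-LIPA 36, 37 or 39, and equally in every fit that left out a single FPC-GFP liver. Fdps had -0.24 ± 0.44, and the transport genes Stard4, which carries cholesterol between membranes, and Tmem97 had -0.39 ± 0.24 and -0.37 ± 0.18, none of them called.

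**Figure D3:**
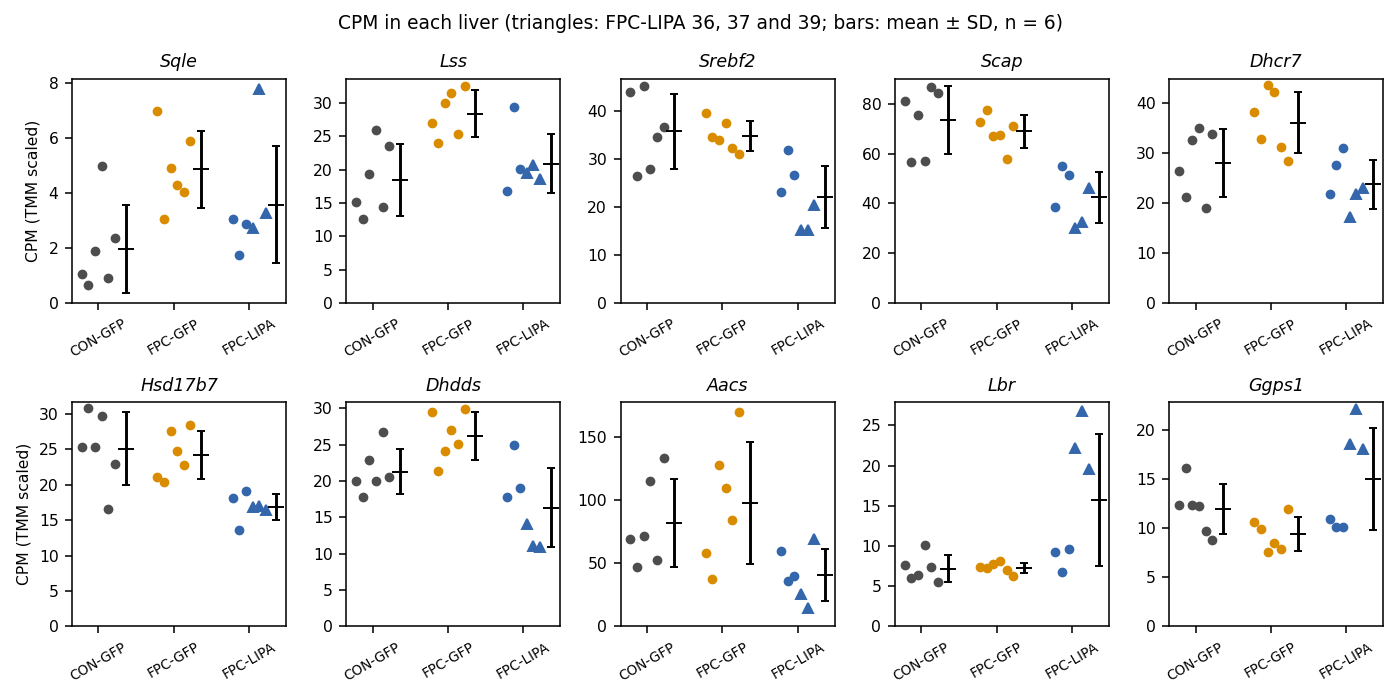
CPM of 10 genes in each of the 18 livers, with the mean ± SD of each group (n = 6) beside the points and triangles for FPC-LIPA 36, 37 and 39. Sqle and Lss are higher in FPC-GFP than in most CON-GFP livers, all FPC-LIPA livers are below FPC-GFP in Scap and Hsd17b7, and the triangles carry the high values of Lbr and Ggps1.

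The calls of the 7 genes other than Scap depended on single libraries, as did the number of calls over all genes. Of the 12 fits that left out 1 library, Lbr and Hsd17b7 were each called in 7, Aacs in 6, Dhcr7 in 5, Srebf2 in 4, and Dhdds and Ggps1 in 3. All 7 were lost without FPC-LIPA 36, none without FPC-LIPA 31, 33 or 34, and at least 3 without each of the 6 FPC-GFP livers. Over all genes, 1004 were lower and 2098 higher with every library. Without FPC-LIPA 36 these were 206 and 886, and without FPC-LIPA 33 they were 2412 and 3170. Leaving out 1 FPC-GFP liver gave 270 to 543 lower. The fold changes also varied with base composition. Over the 30 genes the Pearson correlation of log2 fold change with the GC content of the transcripts was -0.67 with all 6 FPC-LIPA livers, -0.26 with FPC-LIPA 31, 33 and 34 alone and -0.29 with both trends removed, and over 14604 genes tested it was -0.36. The genes share libraries and are not replicates. Counting livers directly, 5 genes (Mvd, Dhdds, Srebf2, Mbtps1 and Tmem97) had FPC-LIPA 36, 37 and 39 all below the other 3 FPC-LIPA livers and 6 (Idi1, Ggps1, Cyp51, Lbr, Sc5d and Mbtps2) all above, beside 23.2% and 23.9% of all genes tested. The part of these libraries in the calls was not tested beyond these values.

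**Figure D4:**
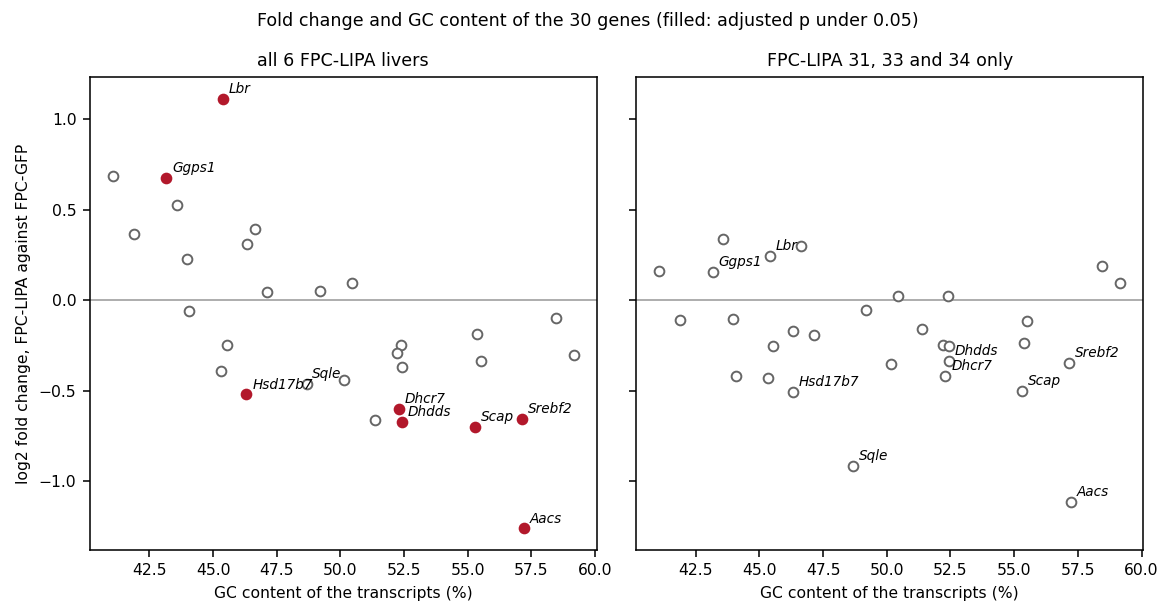
Log2 fold change of FPC-LIPA against FPC-GFP for the 30 genes against the GC content of their transcripts in percent, with all 6 FPC-LIPA livers on the left and with FPC-LIPA 31, 33 and 34 on the right; filled points have an adjusted p under 0.05. The Pearson correlation was -0.67 on the left and -0.26 on the right, where no point is filled.

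Of the 17 other genes of the route that were tested, 4 fell and 0 rose in FPC-LIPA against FPC-GFP, beside 6.87% of all genes lower and 14.4% higher, with a median of -0.35. Srebf1 had -0.58 ± 0.27 (adjusted p = 0.11, edgeR) and Rnf145 -0.52 ± 0.19 (adjusted p = 0.057). With FPC-LIPA 31, 33 and 34 alone 0 of the 17 were called in either direction. All 17 lay below 0, with a median of -0.30 beside 0.01 over all genes. The 17 genes share the same livers and are not replicates, and the share of all genes below 0 was not counted. In SREBP1 and fatty acid synthesis 4 of 12 fell, with a median of -0.18. The prenyl transfer list had 2 of 13 lower and 1 higher, and of 9 LXR targets 1 was lower and 2 were higher. With FPC-LIPA 31, 33 and 34 alone these 3 lists had 0 called in either direction, beside 0.112% of all genes lower and 1.11% higher.

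The marker levels moved with this comparison too. Of 8 Kupffer cell and macrophage markers, 5 rose with all 6 FPC-LIPA livers and 4 with FPC-LIPA 31, 33 and 34 alone, beside 14.4% and 1.11% of all genes higher. Of 7 hepatocyte markers 1 fell, beside 6.87% of all genes lower. Stellate cell and fibroblast markers had 3 of 8 higher, and endothelial (6) and cholangiocyte (5) markers had 0 called. With the 3 livers alone 0 hepatocyte, stellate, endothelial and cholangiocyte markers were called. With the diet, beside 12.9% of all genes higher, 7 of 8 Kupffer cell and macrophage markers had risen, 4 of 8 stellate, 3 of 6 endothelial, 1 of 5 cholangiocyte and 0 of 7 hepatocyte. Their part in the values of the 30 genes was not tested.

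The third comparison, FPC-LIPA against CON-GFP, set diet and LIPA together against the control diet and shares its libraries with both others. Of the 30 genes, 5 were lower (Srebf2, Tm7sf2, Hsd17b7, Aacs and Scap) and 2 higher (Lbr and Hmgcs1), beside 8.2% of all 14433 genes lower and 14.7% higher. Aacs and Lbr were DE, beside 3.25% of all genes lower and 11.8% higher. The median was -0.14 over the 30. Scap had -0.82 ± 0.20 (adjusted p = 0.01, edgeR) and Hsd17b7 -0.61 ± 0.17 (adjusted p = 0.019). Both were called in all 12 fits that left out 1 library. The groups did not overlap in Scap, and again the share of all genes with no overlap was not counted. Srebf2 had -0.72 ± 0.22 (adjusted p = 0.031), Tm7sf2 -0.75 ± 0.23 (adjusted p = 0.028) and Aacs -1.03 ± 0.35 (adjusted p = 0.048). Lbr had 1.08 ± 0.31 (adjusted p = 0.021) and, of the 12 fits, was lost in the 1 without CON-GFP 8. Srebf2 and Tm7sf2 were called in 6 of the 12 fits, Hmgcs1 in 5 and Aacs in 4. All 4 were lost without CON-GFP 1, CON-GFP 3 or CON-GFP 8, and at least 1 of them without each of the other 9 libraries. Over all genes, calls fell without those 3 controls too, from 1184 lower to 849, 829 and 904, and from 2120 higher to 1533, 1589 and 1600. With FPC-LIPA 31, 33 and 34 alone Lbr was at 0.25 ± 0.21, Srebf2 at -0.40 ± 0.19, Tm7sf2 at -0.78 ± 0.26, Aacs at -0.85 ± 0.32 and Hsd17b7 at -0.56 ± 0.20, none of them called.

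Hmgcs1 had means of 64 ± 9.95 CPM in CON-GFP, 85.05 ± 20.4 in FPC-GFP and 122 ± 67.7 in FPC-LIPA (SD, n = 6), and passed in this comparison, at 0.89 ± 0.28 (adjusted p = 0.033, edgeR). FPC-LIPA 37 had 249 CPM, the highest of all 18 livers, and FPC-LIPA 39 had 59.9, inside the control range. With FPC-LIPA 31, 33 and 34 alone Hmgcs1 was at 0.74 ± 0.18 (adjusted p = 0.014) and Scap at -0.60 ± 0.19 (adjusted p = 0.042), and Msmo1 was lower at -0.93 (adjusted p = 0.043). These were the 3 genes called there, beside 6.33% of all genes lower and 11.7% higher, and none was DE, beside 2.6% and 8.8%. Of the 17 other genes of the route, 1 was lower and 4 were higher against CON-GFP with all 6 FPC-LIPA livers, beside 8.2% and 14.7% of all genes. With FPC-LIPA 31, 33 and 34 alone 0 were lower and 2 higher, beside the same 6.33% and 11.7%. Rnf145 was at 1.12 ± 0.22 (adjusted p = 0.0024, edgeR), called in all 12 fits that left out 1 library, and Srebf1 at 0.89 ± 0.29 (adjusted p = 0.04), called in 3. With the 3 livers alone both were called, with adjusted p of 0.0006 and 0.005 by edgeR.

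The 30 genes summed to nearly the same level in each group: 1946 ± 247 CPM in CON-GFP, 1915 ± 98.2 in FPC-GFP and 1948 ± 370.1 in FPC-LIPA (mean ± SD, n = 6). Insig2 and Sc5d had the highest CPM of the 30, so the sum says little of the genes with low counts.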

How the data were processed

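Liver RNA of 18 mice was sequenced. The authors trimmed reads with Trimmomatic 0.33, used HISAT2 2.1.0 with GRCm38 for alignment and Subread's featureCounts for gene counts, and deposited raw counts of 55487 genes; strand setting, annotation version and handling of shared reads are not given in the sources used here. Of 23 columns, 5 were for samples not analysed here. Counts were filtered by filterByExpr, scaled by TMM and tested with edgeR 4.0.16 (glmQLFTest, R 4.3.3), the 12 libraries of each comparison alone, with Benjamini-Hochberg adjustment over all genes tested. DESeq2 1.42.0 was an alternative. Per-liver CPM used TMM factors over all 18 libraries. Exon lengths and GC content came from GENCODE M21. Trends were removed by lowess offsets (span 0.3). The tests were tried on simulated data. Each library came from a separate mouse, and the labels name no cage or litter.

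All 30 genes were named, with every liver's value for those with an adjusted p under 0.05 in either of the first 2 comparisons and for Srebf2, Scap, Insig1 and Insig2. Of other lists at most the 2 genes of highest CPM and the 3 of smallest adjusted p were named, and results for some genes of these lists are not reported here. The members and lists were chosen with earlier results of these data known. The FPC-LIPA 37 library carries the label 37b and a sheet number of 228, apart from the run of 55 to 68.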

Additional observations from a re-analysis of the deposited data

Results flagged for a closer look

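In 90 groups of 6 livers (30 genes in 3 groups), 3 had a highest or lowest liver farther from its neighbour than Dixon's 95% limit on the log2 scale, and chance flags about 5% of groups. Lss in FPC-LIPA 33 was at 29.4 CPM, with the next highest liver at 20.6. Tm7sf2 in CON-GFP 7 was at 30.3 CPM, with the next lowest at 56.7. Tmem97 in FPC-LIPA 37 was at 38.3 CPM, with the next lowest at 50.1.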

How the results depend on the processing

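No paired analysis was possible because the 3 groups share no replicate numbers. In FPC-GFP against CON-GFP, 2 genes were higher, 0 lower and 1 at least 2-fold changed. The count lower was 1 with DESeq2, 1 with the length trend removed, 1 with the GC trend removed and 2 with both trends removed. Over all genes, the counts lower in these fits were 1937 of 25525, 1722 of 14292, 1860 of 14292 and 1775 of 14292. For DESeq2 the 25525 are all genes with at least 1 count, also any left without an adjusted p, so that share is not comparable with the others. The count higher was 8 with library size alone, 1 with all 18 libraries in 1 fit and 0 with sheet numbers 55 to 68. All genes higher in these fits were 3387 of 14307, 877 of 14963 and 1111 of 14640. In either of the last 2 fits, 0 of the 30 were 2-fold changed. Over all genes these 2 fits had 249 and 256 DE lower, and 568 and 511 DE higher. The median of the 30 was 0.33 with library size alone. In FPC-LIPA against FPC-GFP, 6 were lower, 2 higher and 2 at least 2-fold changed. Library size alone gave 2, 1 and 0, sheet numbers 55 to 68 gave 0, 0 and 0, and FPC-LIPA 31, 33 and 34 alone gave 0, 0 and 0. Over all genes, those fits had 266 lower and 1172 higher of 14620, 4 and 100 of 14736, and 17 and 169 of 15246. DE lower and higher were 124 and 892, 3 and 93, and 5 and 111. No filter gave 1 higher, the GC trend removed gave 1 higher and 0 at least 2-fold changed, and both trends removed gave 3 lower, 1 higher and 0 at least 2-fold changed. All genes higher there were 1640 of 25543, 1892 of 14604 and 1518 of 14604, with 903 lower in the last. DE lower and higher were 92 and 1222 with the GC trend removed, and 110 and 865 with both trends removed. Library size alone moved the median of all genes in this comparison from 0.04 to -0.09. In FPC-LIPA against CON-GFP, 5 were lower, 2 higher and 2 at least 2-fold changed. Library size alone gave 0 lower and 1 at least 2-fold changed. Sheet numbers 55 to 68 gave 1 lower, 0 higher and 0 at least 2-fold changed, and FPC-LIPA 31, 33 and 34 alone gave 2, 1 and 0. Over all genes, those fits had 535 lower and 2367 higher of 14433, 468 and 934 of 14914, and 957 and 1763 of 15113. DE lower and higher were 342 and 1824, 285 and 822, and 393 and 1330. In the same comparison 0 of the 30 were at least 2-fold changed with the GC trend removed and with both trends removed. Beside these, 506 and 536 of all 14419 genes were DE lower, and 1753 and 1580 DE higher. The fits with the GC trend and both trends removed were chosen after seeing the data. The cause of these changes was not tested, except that the fits on fewer livers hold fewer samples.

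With 1 library left out at a time, FPC-GFP against CON-GFP had 0 to 1 genes lower, 1 to 6 higher and 0 to 2 at least 2-fold changed, with a median from 0.04 to 0.28. FPC-LIPA against FPC-GFP had 1 to 9 lower, 0 to 3 higher and 0 to 2 at least 2-fold changed, with a median from -0.32 to -0.18. FPC-LIPA against CON-GFP had 2 to 5 lower, 0 to 5 higher and 0 to 3 at least 2-fold changed, with a median from -0.22 to -0.04. Calls over all genes moved as well. In FPC-GFP against CON-GFP they ran from 1096 to 1661 lower and 1370 to 1909 higher. They ran from 206 to 2412 and 886 to 3170 in FPC-LIPA against FPC-GFP, and from 829 to 1958 and 1533 to 2732 in FPC-LIPA against CON-GFP. The sign of the log2 fold change turned only for genes that were not called in that comparison with all libraries. In FPC-GFP against CON-GFP it turned with sheet numbers 55 to 68 for Aacs (-0.17) and Stard4 (-0.17), with library size alone for Idi1 (0.046), Fdps (0.16), Hsd17b7 (0.15), Srebf2 (0.15), Scap (0.086) and Tmem97 (0.19), with the GC trend removed for Idi1 (0.13), with both trends removed for Idi1 (0.091) and Tmem97 (0.034), with DESeq2 for Fdps (0.0071) and Lbr (-0.0034), with all 18 libraries in 1 fit for Fdps (0.013) and Tmem97 (0.0053), with DESeq2 size factors for Lbr (-0.0055), with the length trend removed for Lbr (-0.070) and Tmem97 (0.099), with no filter for Tmem97 (0.0045). In FPC-LIPA against FPC-GFP it turned with library size alone for Acat2 (-0.052), Ebp (-0.11) and Insig1 (-0.13), with sheet numbers 55 to 68 for Mvk (0.036), Fdps (0.046), Msmo1 (0.0081), Ebp (-0.063) and Insig2 (-0.015), with FPC-LIPA 31, 33 and 34 alone for Mvk (0.19), Mvd (0.097), Fdps (0.023), Cyp51 (-0.17), Ebp (-0.051), Sc5d (-0.10), Insig1 (-0.19) and Mbtps2 (-0.11), with the GC trend removed for Mvk (0.23), Tm7sf2 (0.10), Sc5d (-0.11), Insig1 (-0.051) and Mbtps2 (-0.16), with both trends removed for Mvk (0.22), Tm7sf2 (0.20), Ebp (-0.041), Sc5d (-0.052), Insig1 (-0.079) and Mbtps2 (-0.038), with the length trend removed for Msmo1 (0.071) and Ebp (-0.043), with no filter for Ebp (-0.014) and Insig1 (-0.021). In FPC-LIPA against CON-GFP it turned with FPC-LIPA 31, 33 and 34 alone for Fdps (0.022), Ggps1 (-0.19) and Mbtps1 (0.0017), with library size alone for Fdft1 (7.3e-06), Nsdhl (0.045) and Mbtps2 (0.022), with sheet numbers 55 to 68 for Lss (-0.0079), with all 18 libraries in 1 fit for Mbtps2 (0.023), with the length trend removed for Mbtps2 (0.14). With 1 library left out the sign turned in FPC-GFP against CON-GFP for Idi1 (-0.27 to 0.23), Fdps (-0.29 to 0.60), Lbr (-0.061 to 0.13), Hsd17b7 (-0.16 to 0.0067), Srebf2 (-0.12 to 0.025), Stard4 (-0.070 to 0.29) and Tmem97 (-0.097 to 0.080), in FPC-LIPA against FPC-GFP for Mvk (-0.20 to 0.061), Fdps (-0.50 to 0.047), Msmo1 (-0.20 to 0.022), Ebp (-0.028 to 0.11) and Insig1 (-0.056 to 0.17), in FPC-LIPA against CON-GFP for Fdps (-0.53 to 0.35), Fdft1 (-0.15 to 0.030), Nsdhl (-0.18 to 0.086) and Mbtps2 (-0.22 to 0.10).

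Depth limits Fdps, Sqle, Mvd and Mvk most, whose lowest counts were 6, 10, 20 and 24. The 6 livers of a group, the 3 FPC-LIPA libraries that stand apart and the absence of LIPA on the control diet limit all the rest.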

Other observations

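In each group the liver with the lowest Insig2 was the one with the highest Aacs. In CON-GFP 8, which had the lowest Insig2 of its group (288 CPM), Aacs was the highest of the group at 133.7 CPM, and in FPC-GFP 20, with the lowest Insig2 at 135 CPM, Aacs was the highest at 170.2 CPM. In FPC-LIPA the lowest Insig2 was in FPC-LIPA 39 (321 CPM), where Aacs was the highest of the group, at 69.1 CPM. These genes were chosen after their values were seen, and the relation was not tested.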
